A study of Mus musculus with 21 samples.

Results

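The interferon-gamma-induced GTPases were read in the gastrocnemius, a calf muscle, of mice that had trained, had stopped training or had not trained. They were 10 genes, Gbp2, Gbp3, Gbp4, Gbp5, Gbp7, Gbp9, Iigp1, Tgtp1, Tgtp2 and Igtp, of the 40853 genes listed in the count table, and were taken from it by their symbols. All 10 had enough counts to be tested, as had 16129 genes in all. They were picked with the comparisons of these same 21 libraries already known, so their differences between groups are a description of these mice and support nothing beyond it. RNA came from the medial belly of the muscle of female C57BL/6NJ mice that were 10 weeks old when training began, with 1 library per mouse and 7 mice per group. Mice in the Active group ran on a treadmill for 6 weeks, on 5 d per week, in sessions that reached 40 min with a slow warm-up included and were run mainly at about 70% of maximal speed. Mice in the Activity Reduction group followed the same training for 4 weeks and were then left inactive for 2 weeks, and mice in the Inactive group were not trained. All mice, the Inactive group included, performed a final maximal running test 48 to 72 h before collection, and tissue was collected in the fasted state. The male mice of the study were not analysed here.

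Interferon gamma is a cytokine that T cells and natural killer cells release. It binds the receptor made of Ifngr1 and Ifngr2, the signal passes through the kinases Jak1 and Jak2, and target genes are switched on through a DNA element called GAS, while the transcription factor Irf1 acts through the related element ISRE, which type I interferons also use. Among the targets that respond most are the guanylate-binding proteins (Gbp genes) and the immunity-related GTPases (Irg genes), which gather on the membranes that enclose intracellular parasites and bacteria and help to destroy them. Iigp1, Tgtp1 and Tgtp2 encode effector Irg proteins. Igtp, also called Irgm3, encodes a regulatory Irg protein, which with Irgm1 and Irgm2 holds the effectors inactive on the cell's own membranes.

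The members lie in gene clusters of the GRCm39 genome, all as protein-coding genes in the GENCODE annotation. Gbp5 (chr3:142199739-142228105), Gbp7 (chr3:142236044-142255910), Gbp3 (chr3:142265731-142278979) and Gbp2 (chr3:142326349-142343779) follow each other on the plus strand of chromosome 3. Gbp9 (chr5:105224332-105287452) and Gbp4 (chr5:105263633-105287609) share the minus strand of chromosome 5, where their exons overlap by 107 bp, or 1.1% of the exon length of Gbp4. Tgtp1 (chr11:48876154-48884999) and Tgtp2 (chr11:48948021-48955033) lie near each other on the minus strand of chromosome 11. Igtp (chr11:58089840-58098417) lies on its plus strand, where 3.55% of its exon length is shared with Irgm2. Iigp1 stands apart from these clusters on another chromosome. The Tgtp1 transcript matched that of Tgtp2 over 97.4% of its length, at 99.8% identity in the longest match of 2811 bp. Because the sources used here do not give how reads that fit both genes were counted, the split between Tgtp1 and Tgtp2 is uncertain, and their sum is given as well. Exons of Gbp7 overlap the pseudogene Gm43802 on the same strand over 10.6% of their length, and those of Gbp5 overlap the noncoding gene Gm66604 on the opposite strand over 7.82%. Those of Tgtp1 overlap the protein-coding gene Gm12185 on the same strand over 9.7% of their length. How reads in that shared part were counted is not given either, and the sum of Tgtp1 and Tgtp2 does not settle it.

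Promoters are shown because the pathway acts there. They are those of the members with the highest level per length of all annotated exons in each family. Among the Gbp genes these were Gbp7 and Gbp2. Among the Irg genes it was Tgtp2, after Igtp and Iigp1, whose sequences are not printed. The promoter of Tgtp1 was added, after its values were seen, to set the Tgtp pair side by side. Each sequence holds the 250 bases before the start of the gene's canonical transcript in GRCm39, read on the gene's own strand. Capitals mark matches to the GAS motif TTCNNNGAA or to the ISRE core GAAANNGAA, both searched on both strands. That of Tgtp2 stops at 248 bases, where an annotated exon begins, and that of Igtp is not shown because its window lies within exons. The windows are chr11:48883148-48883397 (minus strand) for Tgtp1, chr11:48955034-48955281 (minus strand) for Tgtp2, chr3:142235794-142236043 (plus strand) for Gbp7 and chr3:142326099-142326348 (plus strand) for Gbp2.
Tgtp1: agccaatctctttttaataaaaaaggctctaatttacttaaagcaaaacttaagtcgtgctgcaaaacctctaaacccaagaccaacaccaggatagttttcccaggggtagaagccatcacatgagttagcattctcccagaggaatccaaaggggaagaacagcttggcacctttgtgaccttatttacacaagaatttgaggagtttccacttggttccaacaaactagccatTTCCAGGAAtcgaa
Tgtp2: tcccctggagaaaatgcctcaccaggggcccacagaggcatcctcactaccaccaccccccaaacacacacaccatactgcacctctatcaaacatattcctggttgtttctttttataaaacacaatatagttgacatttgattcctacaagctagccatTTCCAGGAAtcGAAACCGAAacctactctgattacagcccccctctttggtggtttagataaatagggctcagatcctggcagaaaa
Gbp7: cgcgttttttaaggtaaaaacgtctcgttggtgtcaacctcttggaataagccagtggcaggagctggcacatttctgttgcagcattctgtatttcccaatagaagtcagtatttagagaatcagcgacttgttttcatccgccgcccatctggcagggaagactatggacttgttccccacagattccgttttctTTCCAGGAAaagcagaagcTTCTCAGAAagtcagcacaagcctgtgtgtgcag
Gbp2: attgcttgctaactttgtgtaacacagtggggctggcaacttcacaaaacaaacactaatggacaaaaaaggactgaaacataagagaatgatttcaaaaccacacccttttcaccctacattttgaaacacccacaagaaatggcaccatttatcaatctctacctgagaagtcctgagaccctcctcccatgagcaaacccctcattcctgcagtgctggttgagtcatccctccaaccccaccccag
Tgtp2 held a GAS match from 89 to 81 bases before its start, with an ISRE match from 78 to 70 bases before it. The run ctagccatTTCCAGGAAtcgaa, of 22 bases, stood in both Tgtp windows, at bases 97 to 76 before the start of Tgtp2 and at the last 22 bases before that of Tgtp1, so that the Tgtp1 window ended before the ISRE letters. The annotated Tgtp1 gene extends upstream of this window, to chr11:48884999, so not all of its 3 transcripts begin at the canonical start. What the Tgtp1 window holds applies to that start only. Gbp7 held a pair of GAS matches, and the Gbp2 window held neither motif. Among the 10 members, 5 promoters held the GAS motif, 5 the ISRE core, 3 both and 7 at least 1 of them. Among 21770 promoters of protein-coding genes of the same length, 7.7% held the GAS motif, 7.55% the ISRE core, 0.868% both and 14.4% at least 1. A match describes letters in this window and is not a measured site.

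Libraries held between 38482455 and 59785132 counts on genes, and every Active library held fewer than every Inactive library. Transcripts of Alb, which encodes the liver protein albumin, stood over 250 CPM (counts relative to the total of the library) in 8 libraries, 1 Inactive, 5 Active and 2 Activity Reduction, and between 71.1 and 161 CPM in the other 13. These 8 libraries carry the 8 lowest sample codes. Results are therefore given again within the 13 libraries, which held 6 Inactive, 2 Active and 5 Activity Reduction mice. The 8 skeletal muscle markers summed to between 141159 and 173157 CPM. Mylpf was far the lowest of them, with a mean of 113 normalized counts in the Inactive group, against 929036 for Tnnt3, and the reason was not tested.

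**Figure D1:**
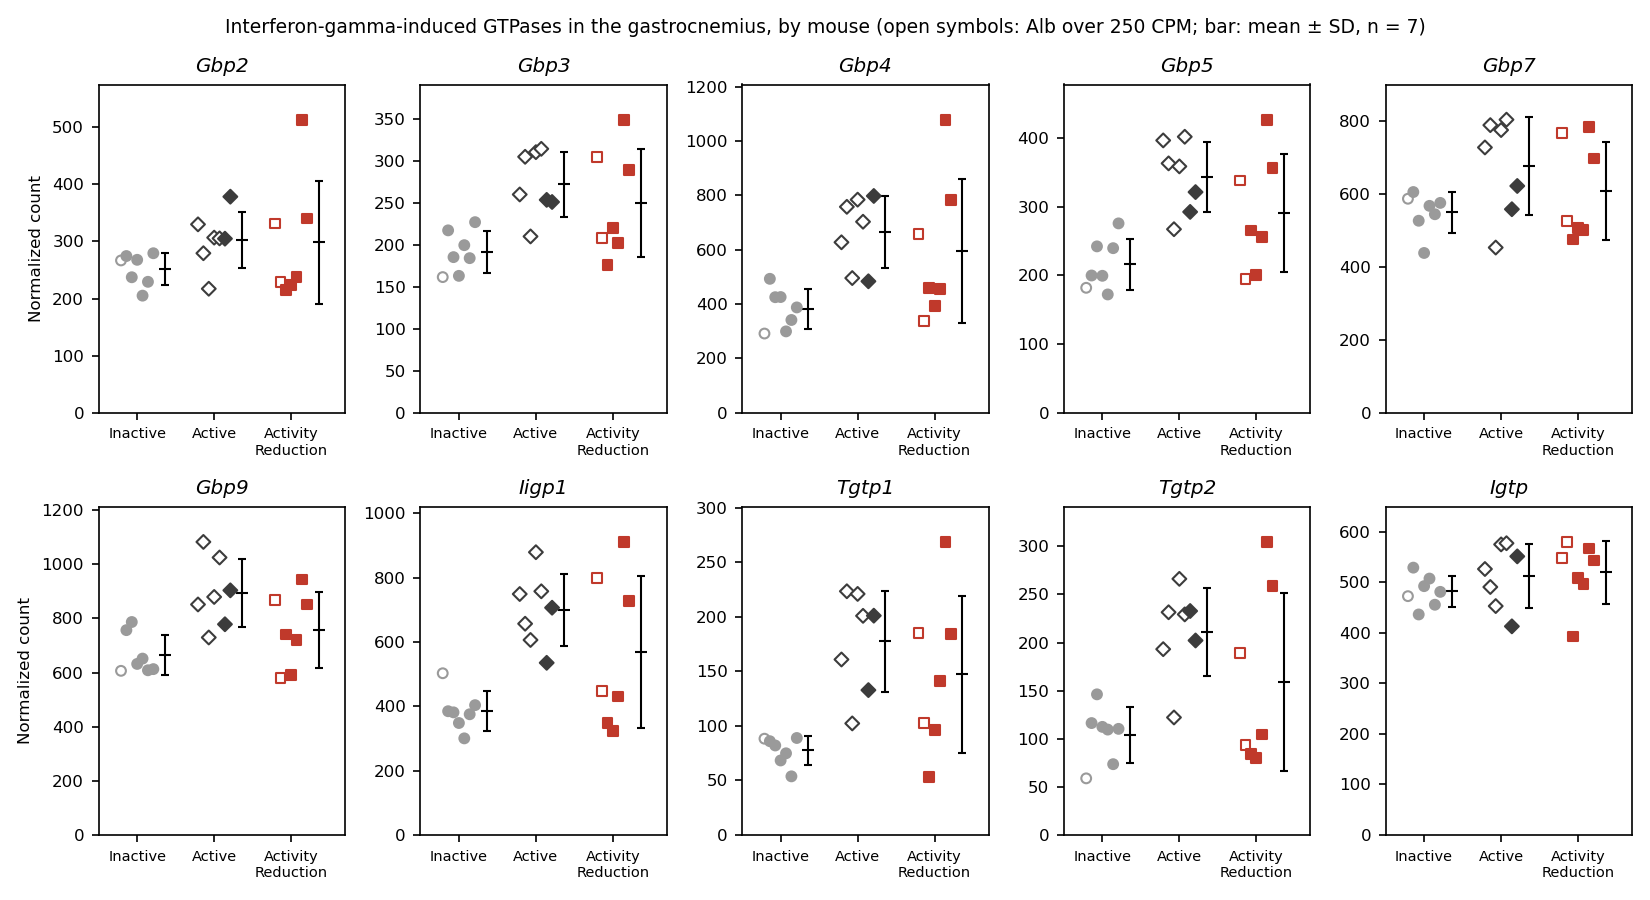
Normalized counts of the 10 GTPases (y axis, from 0, scaled for each gene) in every mouse, by group (x axis). Each point is 1 mouse, open symbols are the 8 libraries with Alb over 250 CPM, and the bar beside each group is the mean ± SD (n = 7). Every Active point lies above every Inactive point for Iigp1 and Tgtp1, and the Activity Reduction points divide into 3 high and 4 low mice for most members.

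Levels were compared between genes per length, as the mean CPM per kb of exon in the Inactive group. The exon length joined the exons of all annotated transcripts of a gene, 2561 bp for Gbp2, 9669 bp for Gbp9 and 6365 bp for Iigp1. The canonical transcripts of these genes measured 2540, 5655 and 3040 bp, so the order depends on this choice of length. Igtp (2.15 CPM per kb), Gbp2 (2.00) and Gbp7 (1.87) were the highest, followed by Gbp9 (1.40), Iigp1 (1.23), Gbp3 (0.914), Gbp4 (0.799), Tgtp2 (0.719), Gbp5 (0.602) and Tgtp1 (0.483). The ranges over mice overlapped between all neighbours in this order.

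Active mice were first set against Inactive mice, which asks what 6 weeks of training left in resting muscle. All 10 members had a higher mean normalized count (raw count divided by DESeq2's size factor) in the Active group, and all 10 fitted fold changes were above 0, as were those of 51.6% of all genes. The differences were largest in the effector Irg genes and smallest in Igtp. Tgtp1 counted 53.8 at the lowest, 82.1 at the median and 89.0 at the highest in the Inactive group, against 102, 201 and 223 in the Active group. The groups did not overlap for Tgtp1, with means of 77.5 ± 12.9 and 178 ± 46.6 (SD, n = 7), a ratio of 2.29. Iigp1, which lies on the plus strand of chromosome 18 from 60506680 to 60525706, counted 301, 381 and 503 in the Inactive group and 536, 707 and 879 in the Active group. All Active mice were likewise above all Inactive mice for Iigp1, with means of 385 ± 61.7 and 699 ± 112 and a ratio of 1.81. These were the 2 members with no overlap in this comparison, where 0.0434% of the 16129 genes had every Active library above every Inactive library. Tgtp2, the near copy of Tgtp1, counted 58.9, 110 and 146 in the Inactive group and 122, 229 and 266 in the Active group. Its means were 104 ± 29.0 and 211 ± 45.8, a ratio of 2.03, and the lowest Active mouse lay within the Inactive range. The sum of Tgtp1 and Tgtp2 was 181 ± 34.3 in the Inactive group and 389 ± 86.3 in the Active group.

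The Gbp genes stood between the effector Irg genes and Igtp. Gbp4 counted 292, 388 and 493 (lowest, median and highest) in the Inactive group and 484, 703 and 798 in the Active group, and 6 of 7 Active mice were above every Inactive mouse. Gbp5, which takes part in inflammasome activation, counted 172, 200 and 276 in the Inactive group and 267, 359 and 402 in the Active group. Here too 6 of 7 Active mice stood above the Inactive range, and the same number did for Gbp3, with 161, 185 and 227 in the Inactive group and 210, 259.8 and 314.1 in the Active group. Gbp9 counted 607, 632 and 787 in the Inactive group and 730, 879 and 1083 in the Active group. Gbp7 counted 438, 567 and 605 in the Inactive group and 453, 728 and 804 in the Active group. For Gbp9 and Gbp7, 5 of 7 Active mice lay above the Inactive range. Gbp2 counted 205, 267 and 279 in the Inactive group and 217, 305.3 and 378 in the Active group. Of the Active mice 6 stood above the Inactive maximum of Gbp2 and the other near the Inactive minimum. Igtp counted 436, 481 and 529 against 413, 526 and 577, and its means of 482 ± 31.2 and 512 ± 62.9 differed by less than 1 SD.

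In the edgeR model the log2 fold change (Active minus Inactive) was 1.20 (SE 0.258) for Tgtp1, 1.03 (SE 0.283) for Tgtp2 and 0.86 (SE 0.196) for Iigp1. For Gbp4, Gbp5, Gbp3 and Gbp9 it was 0.81 (SE 0.209), 0.67 (SE 0.157), 0.51 (SE 0.138) and 0.43 (SE 0.108), and for Gbp7, Gbp2 and Igtp it was 0.30 (SE 0.134), 0.28 (SE 0.163) and 0.09 (SE 0.0837). The median of the members was 0.59 and that of all genes tested 0.01. Calls needed a Benjamini-Hochberg adjusted p-value below 0.05 with a log2 fold change beyond 0.25 either way. By edgeR's quasi-likelihood test 0 of the 10 members were called, and 0% of all genes tested, with adjusted p-values of the members from 0.159 to 0.718. At an unadjusted p-value under 0.05, 8 of 10 members were higher in the Active group, all but Gbp2 and Igtp, where 6.18% of all genes were. DESeq2 on the same 21 libraries called 5 members higher, Gbp3, Gbp5, Gbp9, Iigp1 and Tgtp1. It called 0.297% of the 13457 genes to which it gave an adjusted p-value higher. The calls thus depended on the tool. This contrast chose the members, and nothing is read from their share.

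**Figure D2:**
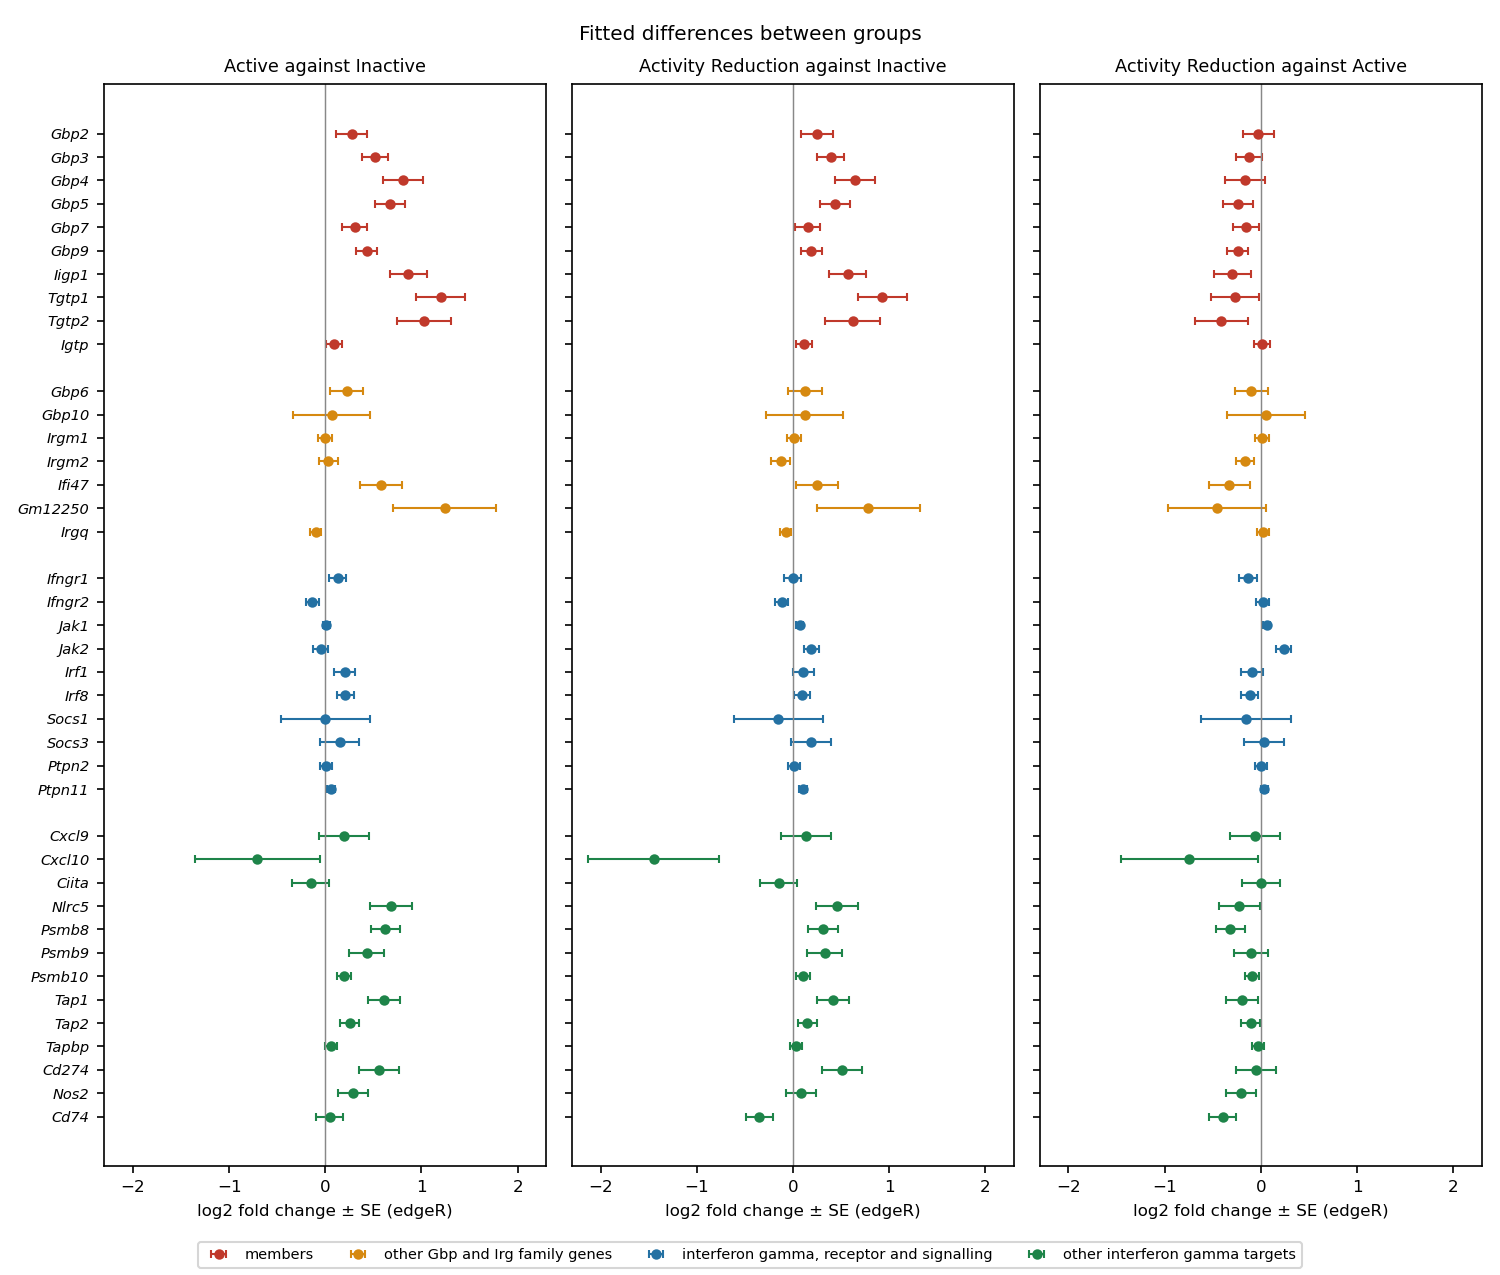
Log2 fold changes from edgeR (x axis, points, with SE as bars) of the members and of genes from 3 other lists (y axis), in the 3 comparisons between groups of 7 mice. The members (red) lie between 0.09 and 1.20 for Active against Inactive, between 0.11 and 0.93 for Activity Reduction against Inactive and between -0.41 and 0.02 for Activity Reduction against Active, while the signalling genes (blue) lie close to 0.

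Against the same Inactive mice, the Activity Reduction group also had higher means for all 10 members, with a wider spread between mice. Its median was lower than the Inactive median for Gbp2 (237 against 267), Gbp7 (526 against 567) and Tgtp2 (104 against 110). For the other members the median was higher. All 10 fitted fold changes were above 0, as were those of 52.2% of all genes. Tgtp1 counted 52.9, 96.5, 103, 141, 184, 185 and 269 in the 7 Activity Reduction mice, against an Inactive maximum of 89.0. Iigp1 counted 323.1, 348, 431, 448, 727, 799 and 911, against an Inactive maximum of 503. Gbp4 counted 337, 393, 454, 461, 658, 782 and 1079, against an Inactive maximum of 493. For Iigp1 and Gbp4, 4 mice lay within the Inactive range and 3 well above it, whereas for Tgtp1 6 of 7 mice lay above that range and the other just below it. The SD was 58.0% of the mean for Tgtp2, 48.9% for Tgtp1, 44.4% for Gbp4 and 41.7% for Iigp1, against 27.9%, 16.6%, 19.4% and 16.0% in the Inactive group. The means were 147 ± 72.0 for Tgtp1, 159 ± 92.4 for Tgtp2, 570 ± 237 for Iigp1 and 595 ± 264 for Gbp4 (SD, n = 7).

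The other members had smaller differences from the Inactive group. Means in the Activity Reduction group were 249.9 ± 64.1 for Gbp3, 291 ± 85.8 for Gbp5, 756 ± 140 for Gbp9, 608 ± 135 for Gbp7, 298 ± 108 for Gbp2 and 520 ± 63.2 for Igtp. The log2 fold change (Activity Reduction minus Inactive) was 0.93 for Tgtp1, 0.65 for Gbp4, 0.62 for Tgtp2, 0.57 for Iigp1, 0.44 for Gbp5, 0.39 for Gbp3, 0.25 for Gbp2, 0.19 for Gbp9, 0.15 for Gbp7 and 0.11 for Igtp. Their median was 0.41, against 0.01 for all genes tested. None of the 10 members had the groups apart, where 0.0558% of all genes had every Activity Reduction library above every Inactive library. By edgeR's quasi-likelihood test 0 members were called, against 0.0124% of all genes, and the adjusted p-values lay between 0.333 and 0.852. At an unadjusted p-value under 0.05, 6 members were higher, Gbp3, Gbp4, Gbp5, Iigp1, Tgtp1 and Tgtp2, where 4.19% of all genes were. DESeq2 called 0 members, against 0.154%, in the higher direction, of the 9109 genes to which it gave an adjusted p-value. It gave none to Tgtp1 and Tgtp2, so these could not be called.

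The comparison of Activity Reduction with Active, which asks what 2 weeks without training changed, shares its groups with both comparisons above. Of the 10 members, 9 had a lower fitted value in the Activity Reduction group and Igtp a higher one, where 49.8% of all genes had a higher one. The log2 fold change (Activity Reduction minus Active) was -0.41 for Tgtp2, -0.30 for Iigp1, -0.27 for Tgtp1, -0.24 for Gbp5 and -0.24 for Gbp9. It lay between -0.16 and 0.02 for the other 5, and the median was -0.20. The fitted median was -0.33 without Activity Reduction replicate 6, -0.12 without replicate 3 of that group and -0.09 in the libraries with Alb under 250 CPM. By edgeR's quasi-likelihood test 0 members were called, and 0% of all genes, with adjusted p-values from 0.339 to 0.966. At an unadjusted p-value under 0.05, Gbp9 was the 1 member lower in the Activity Reduction group, where 6.44% of all genes were lower. DESeq2 also called 0 members, against 0.869%, in either direction, of the 13457 genes to which it gave an adjusted p-value.

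**Figure D3:**
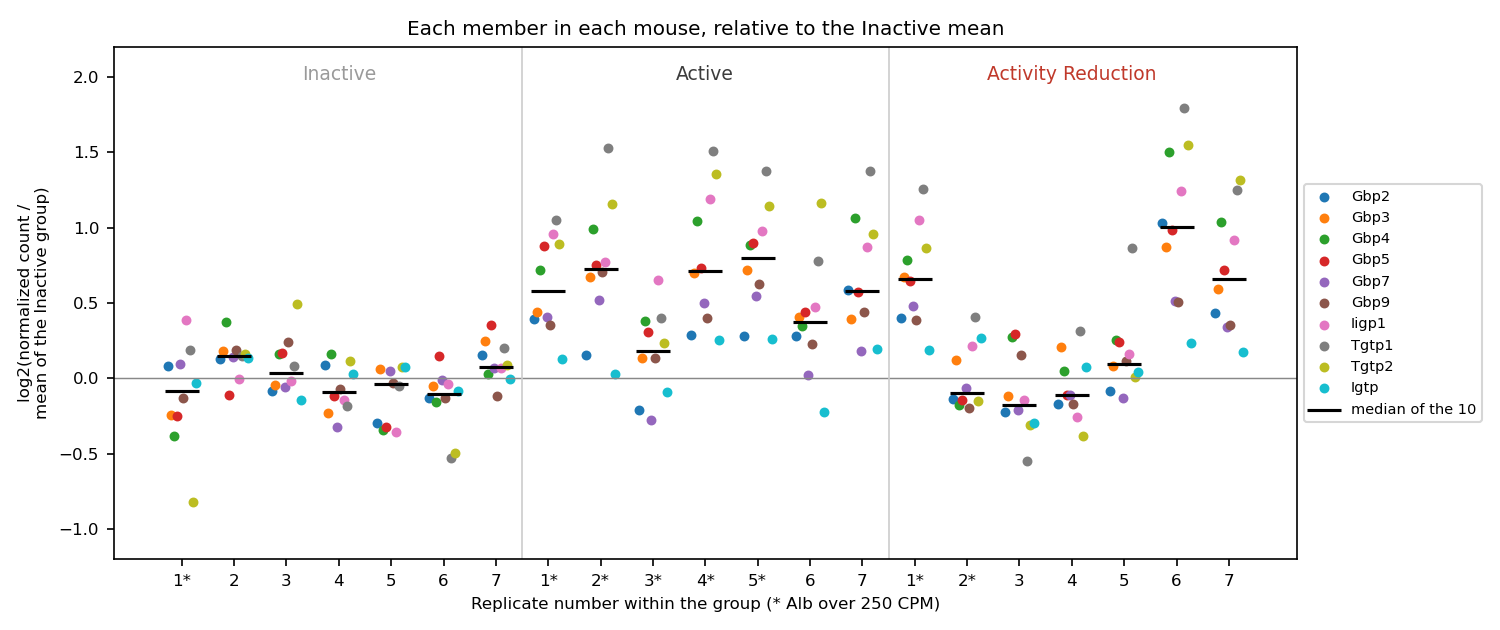
Each member in each mouse as the log2 ratio of its normalized count to the mean of the Inactive group (y axis), by replicate number within the group (x axis, numbers only name the mice). Black bars are the median of the 10 members and asterisks mark libraries with Alb over 250 CPM. In the Activity Reduction group, replicates 1, 6 and 7 have medians from 0.66 to 1.01 and the other 4 mice medians from -0.18 to 0.10.

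Read mouse by mouse, most members stood high or low together. In 3 Activity Reduction mice, replicates 1, 6 and 7, all 10 members stood above every Inactive mouse. In the other 4 mice of that group, between 0 and 2 members did. Igtp did not follow this division, as replicate 2 counted 580, above replicates 1, 6 and 7 at 548, 567 and 543. The median log2 ratio to the Inactive mean was 0.66, 1.01 and 0.66 in replicates 1, 6 and 7. It was -0.10, -0.18, -0.11 and 0.10 in replicates 2 to 5. In the Active group between 3 and 10 members stood above the Inactive range in each mouse, and all 10 did in 3 of 7 mice. The Active mouse with the lowest median was replicate 3, at 0.18, and the other 6 had medians from 0.38 to 0.80. Inactive mice had medians between -0.10 and 0.15. Alb stood over 250 CPM in replicate 1 of the high Activity Reduction mice and under it in replicates 6 and 7. The labels give no reason for this division of the Activity Reduction mice, and the mice were not grouped by it in any test.

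The likeness of the members within groups was measured as Pearson's r of their deviations from the group means of log2 normalized counts over the 21 libraries. All 45 pairs of members had a positive r, from 0.217 to 0.880 with a median of 0.724. The 7 pairs of lowest r all held Igtp, and without Igtp the 36 pairs had r of at least 0.592. Gbp3 (0.886), Tgtp1 (0.882) and Gbp4 (0.873) were most like the mean of the other 9 members, and Igtp (0.528) was least like it. In the 13 libraries with Alb under 250 CPM these values lay between 0.609 and 0.963, and in the other 8 between 0.406 and 0.942, with Igtp lowest in both. The points share their libraries, and the near-identical genes may share reads, so these values are a description.

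The 10 genes outside the list with the likest profile were Tap1 (0.866), Nlrc5 (0.826), Cd274 (0.811), H2-Q4 (0.808), Tap2 (0.774), Irgm2 (0.765), Nod1 (0.757), Gm12250 (0.752), Ntn5 (0.728) and H2-T22 (0.722), with r against the members' mean profile over 21 libraries. Tap1 and Tap2 encode the peptide transporter of antigen presentation, Nlrc5 the activator of class I histocompatibility genes, H2-Q4 and H2-T22 class I molecules, and Cd274 the checkpoint ligand PD-L1. Irf1, a regulator within the pathway, had r = 0.359. Alb had r = 0.114, and Csf1r, a macrophage receptor, r = 0.287.

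**Figure D4:**
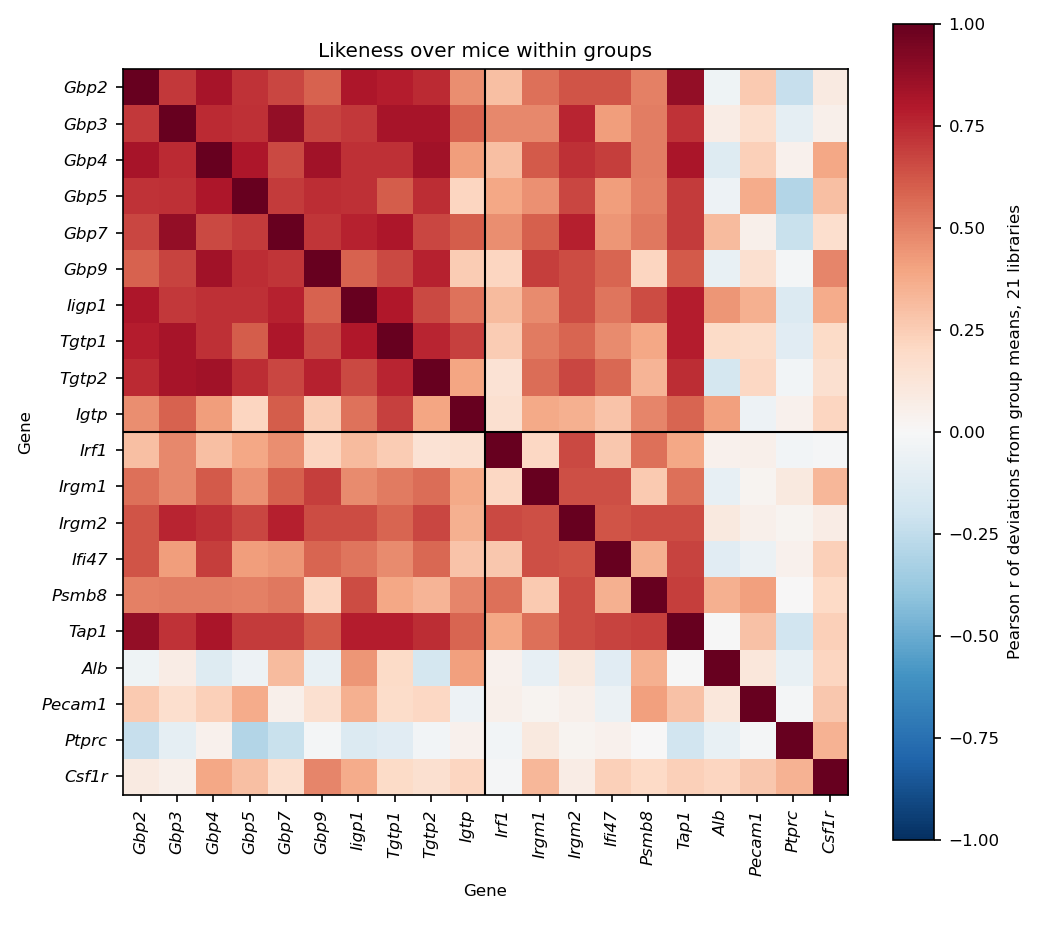
Pearson's r between genes (both axes) of deviations from group means of log2 normalized counts over 21 libraries, on a scale from -1 (blue) to 1 (red), members within the upper left square. The 45 member pairs lie between 0.217 and 0.880, with Igtp the palest member, and the rows of Alb, Pecam1, Ptprc and Csf1r are paler still against most members.

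Interferon gamma itself was hardly counted. Ifng had 4 counts over all 21 libraries, with 0 in 19 of them, and was not tested. Both receptor chains were present, Ifngr1 with a mean of 865 normalized counts in Inactive, 941 in Active and 859.7 in Activity Reduction mice, and Ifngr2 with 4298, 3892 and 3948. Irf1 had means of 311.2, 356 and 335, in the same order of groups. Its log2 fold change in the Active against the Inactive group was 0.20 (SE 0.110, adjusted p = 0.518 by edgeR), smaller than those of all members but Igtp. Of the 12 genes listed for interferon gamma, its receptor and signalling, 11 were tested and edgeR called 0 in each comparison, with a median log2 fold change of 0.06 for Active against Inactive. At an unadjusted p-value under 0.05, Irf8 was higher in the Active group (0.21), and Jak2 was higher in the Activity Reduction group than in the Inactive (0.19) and Active (0.24) groups. Ptpn11 (0.10) was the other gene of this list with such a p-value, against the Inactive group. Of all genes tested, 10.9% had such a p-value for Active against Inactive, in either direction. The share was 7.73% for Activity Reduction against Inactive and 13.3% for Activity Reduction against Active.

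The relatives of the members varied among themselves. Of 10 other Gbp and Irg genes, 7 were tested, edgeR called 0 in each comparison, and their median log2 fold change for Active against Inactive was 0.07. Irgm1 had means of 687, 683 and 689 normalized counts in Inactive, Active and Activity Reduction mice, and Irgm2 of 734, 747 and 668. Like Igtp, these regulatory Irg genes had nearly equal levels in the Inactive and Active groups. Ifi47, another Irg gene, had means of 51.1, 75.9 and 60.6, a log2 fold change in the Active group of 0.58 (SE 0.219, adjusted p = 0.362 by edgeR). Gm12250, which the annotation lists as noncoding and which had few counts, had a log2 fold change of 1.24 (SE 0.532). These were the 2 genes of this list with an unadjusted p-value under 0.05 in that comparison, where 10.9% of all genes had one, and 0 of the list had one in the others.

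Other targets of interferon gamma lay nearer to the members than these relatives did for Active against Inactive. Of 14 on the list 13 were tested, with a median log2 fold change of 0.25 for Active against Inactive, 0.13 for Activity Reduction against Inactive and -0.10 for Activity Reduction against Active. By edgeR 0 were called in each comparison. At an unadjusted p-value under 0.05, 7 were higher in the Active than in the Inactive group, where 6.18% of all genes were. The lowest p-values were those of Psmb8, a subunit of the immunoproteasome, at 0.63 (SE 0.153), Tap1 at 0.61 (SE 0.168) and Nlrc5 at 0.68 (SE 0.217). DESeq2 called Psmb8 and Tap1, against 0.297%, in the higher direction, of the 13457 genes to which it gave an adjusted p-value. In Activity Reduction against Inactive 3 were higher and 2 lower at that unadjusted p-value, where 4.19% and 3.54% of all genes were. The lower ones were Cxcl10, which had few counts, at -1.45, and Cd74, the invariant chain of class II molecules, at -0.35. Tap1 and Cd274 were among the higher ones, at 0.41 and 0.51. Targets of type I interferon, which share the ISRE, had a median of 0.16 for Active against Inactive over the 11 of 12 tested. Their median was 0.04 for Activity Reduction against Inactive, with 6 higher and 5 lower. For Activity Reduction against Active it was -0.22, with 10 lower and 1 higher, beside -0.20 for the members. By edgeR 0 were called in each comparison. At an unadjusted p-value under 0.05, 3 of these were higher in the Active than in the Inactive group, beside the same 6.18% of all genes. They were Oasl2 (0.46), Irf7 (0.52) and Ifit2 (0.27).

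Markers of other cells were read in the same libraries, since in bulk muscle fewer cells of a type and less RNA per cell cannot be told apart. Of 10 markers of T and natural killer cells, the cells that release interferon gamma, 1 was tested, Cd3e, and their sum stood between 0.496 and 1.23 CPM in every library with similar ranges in the 3 groups. The 7 macrophage markers summed to a median of 19.8 CPM (18.2 to 29.4) in the Inactive group, 27.3 (21.2 to 32.5) in the Active group and 19.4 (12.9 to 26.0) in the Activity Reduction group. Of these, 3 were higher in the Active than in the Inactive group at an unadjusted p-value under 0.05, where 6.18% of all genes were. Csf1r stood at 0.53, while Cd68 (-0.07) and Itgam (-0.17) were lower in the Active group. Against the Active group, 3 were lower in the Activity Reduction group at that p-value, where 6.44% of all genes were, and Cd68 (0.12) was higher. The 6 endothelial markers summed to a median of 203 CPM (183 to 229), 221 (191 to 259) and 194 (170.1 to 200.2), in the same order. At an unadjusted p-value under 0.05, 3 were higher in the Active than in the Inactive group, where 6.18% of all genes were. At that p-value 3 were lower in the Activity Reduction than in the Active group, where 6.44% of all genes were. Kdr stood at 0.29 and -0.42 in these comparisons. Tie1 was the endothelial marker lower in the Active than in the Inactive group (-0.03), and all 6 were lower in the Activity Reduction than in the Active group. The 12 liver markers summed to a median of 211, 1330 and 257 CPM. No marker of these lists was at 0 in every library, and the part of these cells in the differences of the members was not tested.

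Within the 13 libraries with Alb under 250 CPM, the mean of 9 of 10 members was higher in the 2 Active than in the 6 Inactive mice, with a median log2 ratio of 0.46. Tgtp1 had a ratio of means of 2.21, Tgtp2 of 1.95, Iigp1 of 1.70 and Gbp4 of 1.62, and Igtp, the exception, of 0.997. In 6 members both Active mice lay above all 6 Inactive mice, as they did in 4.61% of all genes tested. In the other 8 libraries the mean of the 5 Active mice was above the 1 Inactive mouse for all 10 members, with a median of 0.69. Active replicate 3 lay below that mouse for Gbp2, Gbp7 and Igtp. The same Inactive mouse was the lowest of its group for Gbp3, Gbp4, Gbp9 and Tgtp2, and the highest for Iigp1. For Activity Reduction against Inactive the median was 0.39 in the 13 libraries (5 against 6 mice) and 0.43 in the other 8 (2 mice against 1). The means of all 10 members were higher in both. For Activity Reduction against Active it was -0.08 and -0.28, against -0.20 in all libraries. The direction of the means in the first 2 comparisons was thus the same on both sides of this division, apart from Igtp. The side over 250 CPM rests on 1 Inactive mouse.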

How the data were processed

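Poly(A) RNA of 21 mice, 7 per group, was read from the deposited counts. The authors used fastp for trimming, STAR for alignment to GRCm39 and featureCounts for counts per gene; their versions, annotation release, strand setting and treatment of reads that fit several genes are not given in the sources used here. The deposited counts are raw and whole. A further deposited table, whose name says normalized counts, was equal to it in all 857913 values and was not used. Counts were divided by DESeq2's size factors to give normalized counts. Differential expression was tested with edgeR (version 4.0.16) quasi-likelihood fits after TMM normalization and filterByExpr, in 1 model of the 21 libraries, in R 4.3.3. SE is the absolute log2 fold change divided by the square root of F. DESeq2 (version 1.42.0) was an alternative. The adjusted p-values of edgeR span all genes tested, and those of DESeq2 span the genes to which it gave one. Scripts were tested on simulated data. The 38482455 to 59785132 counts per library set the precision.

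The members and lists were chosen with earlier results of these data known. Named genes were all 10 members, up to 3 genes per other list and comparison by lowest p-value, chosen pathway genes, the 10 likest genes and the promoters of up to 4 members. Loci and promoters came from GRCm39 with GENCODE M39, and copies of transcripts from blastn 2.17.0. Most same-numbered replicates of different groups did not deviate together, with r over 0.1 in 2, 3 and 2 of 7 pairs for Active against Inactive, Activity Reduction against Inactive and Activity Reduction against Active. The replicates numbered 1, all with Alb over 250 CPM, had r of 0.244, 0.439 and 0.310 in that order. The numbers were not taken as pairs. The alternatives were leaving out each mouse, other normalization, no filter on low counts, DESeq2 and fits of only the 2 groups compared. Further ones were the replicate number as a block, the 13 libraries with Alb under 250 CPM and the division at 250 CPM of Alb as a covariate. A gene of the signalling list is not reported here, though the counts over its list include it.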

Additional observations from a re-analysis of the deposited data

Results flagged for a closer look

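Of 30 sets of 7 values (10 members in 3 groups), 1 held a mouse that stood far from the others. Gbp2 counted 513 normalized counts in Activity Reduction replicate 6, where the next highest mouse of the group counted 340.1 and the gap was 0.581 of the group's range, past Dixon's limit for 7 values. Chance alone gives such a value in about 1 of 20 sets.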

How the results depend on the processing

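The number of members called between the Active and Inactive groups, 0 with edgeR, was 2 (Iigp1 and Tgtp1) with edgeR on only the 2 groups compared and 5 with DESeq2 on the 3 groups. With settings added after the data were seen it was 4 with DESeq2 without independent filtering, 6 with that filtering at 0.05 and 7 with DESeq2 on only the 2 groups. Genes called there from 3 other lists (Gbp and Irg relatives, signalling genes and other interferon gamma targets) were 2 with DESeq2, and 1, 2 and 2 with the same added settings. DESeq2 on the 3 groups called 0.424% of the 13457 genes to which it gave an adjusted p-value in that comparison, in either direction. The shares under the other settings are not printed here. That comparison chose the members, so nothing is read from these counts. In the comparisons of the Activity Reduction group, 0 members were called under every alternative run. Leaving out each mouse in turn called 0 members, and gave member medians from 0.55 to 0.65 (Active against Inactive), 0.30 to 0.47 (Activity Reduction against Inactive) and -0.33 to -0.12 (Activity Reduction against Active). The last moved by over 1.5 times without Activity Reduction replicate 6 (-0.33) and without replicate 3 (-0.12), and was -0.09 in the 13 libraries with Alb under 250 CPM. The replicate numbers were not taken as pairs of mice. With the replicate block 0 members were called in each comparison, the medians were 0.60, 0.39 and -0.22, and 8, 5 and 0 members had an unadjusted p-value under 0.05. Over all members and alternatives 0 to 11 of 310 fold changes in each comparison took the other sign, all of Igtp, Gbp7 or Gbp2 and all near 0. The depth limits mainly Ifng and the lymphocyte markers.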

Other observations

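Genes of the other lists also followed the members from mouse to mouse within groups. Over the 21 libraries, Pearson's r of the deviations from group means against the members' mean profile was 0.668 for Cxcl9, a chemokine that draws T cells, 0.619 for Psmb9 and 0.548 for Psmb8, subunits of the immunoproteasome, and 0.543 for Gbp6. Targets of type I interferon spread widely, with 0.641 for Ifit2, 0.513 for Ifit3, 0.133 for Isg15, 0.218 for Mx2 and -0.06 for Ifit1. These values are a description of libraries that share their depth and handling, and carry no test.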
